A study of Callithrix jacchus with 54 samples.

Results

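The genes examined here were 8 regulators of growth and developmental timing in common marmoset cells, namely the MYC family genes MYC (gene ID 100407754), MYCN (100404698) and MYCL (100395697), the MYC partner MAX (100389089), the RNA-binding protein genes LIN28A (100405014) and LIN28B (100400137), and the chromatin protein genes HMGA1 (108587685) and HMGA2 (100403708). They were chosen by name, and all 8 were found among the 14812 genes of the deposited table and passed the filter on low values that left 11197 genes for testing. Each gene was described in all 27 conditions of the series, in 54 libraries with 2 libraries a condition.

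MYC, MYCN and MYCL encode related transcription factors that bind DNA as dimers with MAX and drive ribosome production, metabolism and cell division. MYC and MYCN are known to replace each other in part, and embryonic stem cells usually hold much of both. LIN28A and LIN28B bind the precursors of let-7 microRNAs and block their maturation, and let-7 in turn represses HMGA2, MYC family genes and LIN28 itself, so that these genes are often high in early embryonic cells and low in differentiated ones. HMGA1 and HMGA2 are small proteins that bind AT-rich DNA and open chromatin. Primordial germ cells (PGCs), the founders of the germline, are known to express LIN28A.

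All libraries came from the female marmoset embryonic stem cell (ESC) line CMES40, and every cell carried the reporters BLIMP1-tdTomato (BT) and NANOS3-eGFP (NG). A line derived from single colonies with the genotype rtTA, tetO-BLIMP1, SOX17-GR and DD-TFAP2C (the labels count the number in the last name upward from library to library) was kept in the medium DK20FA on mouse feeder cells. It gave the cjESC DK20FA libraries and 3 induction courses of 12, 24, 48 and 96 h. These were BLSE (BMP4, LIF, SCF, EGF and a Rock inhibitor), SOX17+BLSE (the same factors while SOX17-GR was switched on with dexamethasone) and SOX17+LSE (SOX17 switched on, no BMP4). The other line carried only the reporters (labelled wild type) and was kept in PESFA medium on feeder cells. It was pre-treated with the WNT activator IM12 and activin A and then cultured in BLSE with the WNT inhibitor IWR1 (BLSE+IWR1, to day 6) or with IWR1 and the retinoic acid signalling inhibitor BMS493 (BLSE+IWR1+BMS). Day 6 cells were finally aggregated with gonadal somatic cells of mouse embryos as xenogeneic reconstituted ovaries (xrOvary) and cultured to day 20, 40 or 70. Cells positive for TRA-1-60 were sorted from cjESCs and pre-treated cells, all cells were taken at 12 to 48 h and from BLSE at 96 h, and tdTomato-positive cells were sorted at 96 h in the other courses, at day 6 and from xrOvary. At 96 h the comparison of SOX17+BLSE or BLSE+IWR1 with BLSE was therefore also one of sorted with unsorted cells. Each comparison of induced cells with cjESCs or pre-treated cells likewise set TRA-1-60-sorted cells against all cells or tdTomato-sorted cells. The part of the sort in these results was not tested. Dexamethasone, which was added to switch on SOX17, and SOX17 itself cannot be told apart.

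The values are TPM, transcript abundances that the authors scaled for gene length and library size. Columns summed to 790300 to 839203 TPM with 10146 to 12688 genes above 0. Replicates correlated at 0.977 to 0.994 over all genes, and no 2 columns were identical. Read depth is unknown from TPM. As a check of the labels, SOX17 stood at 64.57 and 62.67 TPM at 12 h of BLSE, against 164.17 and 167.87 TPM once it was switched on, and every SOX17+BLSE library lay above every BLSE library at all 4 times. Summed TPM of 6 early PGC markers were 839.33 and 673.56 in cjESC DK20FA, 256.46 and 289.55 at 96 h of BLSE and 3377.18 and 3162.18 at 96 h of SOX17+BLSE. The lower sum in BLSE came from PDPN, which stood at 9.24 and 9.4 TPM against 620.02 and 443.63 TPM in cjESC DK20FA. TFAP2C (198.95 and 221.13 against 173.55 and 182.48 TPM) and NANOS3 were higher there, SOX17 and PRDM1 overlapped, and KIT was near 0 in both. Summed TPM of 9 feeder or stromal markers were higher in cjESC PESFA (2955.68 and 1744.88) and BLSE at 96 h (1846.88 and 1179.13) than in cjESC DK20FA (218.17 and 253.18), and stood at 47.75 and 42.49 at 96 h of SOX17+BLSE. The 2 higher sums differed in make-up. COL1A1 stood at 1598.43 and 877.89 TPM in PESFA, but at 9.34 and 10.36 TPM in BLSE at 96 h, below 41.84 and 83.56 TPM in DK20FA. COL1A2 was also lower in BLSE at 96 h than in DK20FA, and other markers of the list made up most of that sum. Since these are bulk samples, fewer cells of a type and less RNA of a gene per cell cannot be told apart in any result below.

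The 8 genes differed in how far their levels moved. On the scale of log2(TPM + 1), the span between the highest and the lowest condition mean was 7.32 for HMGA2, 5.54 for MYC, 3.63 for MYCN, 3.51 for MYCL, 2.7 for LIN28B, 2.51 for HMGA1, 1.58 for MAX and 1.39 for LIN28A, beside a median span of 1.62 over all genes tested. HMGA2 and MYC spanned more than 99.2% and 96.9% of genes, whereas MAX and LIN28A lay near the middle at 48.3% and 38.2%. LIN28A was the most abundant of the 8 genes in TPM, from 538.32 to 1614.61, and its mean log2 level exceeded that of 99% of genes. MYC ranged from 5.01 to 322.49 TPM with a median of 204.78, MYCN from 20.47 to 291.29 (median 141.58) and LIN28B from 57.24 to 442.84 (median 243.88). HMGA1 ranged from 45 to 334.86 (median 141.905). MAX ranged from 29.73 to 107.27 TPM, and MYCL (1.52 to 41.34 TPM) and HMGA2 (0 to 173.07 TPM) were the least abundant.

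**Figure D1:**
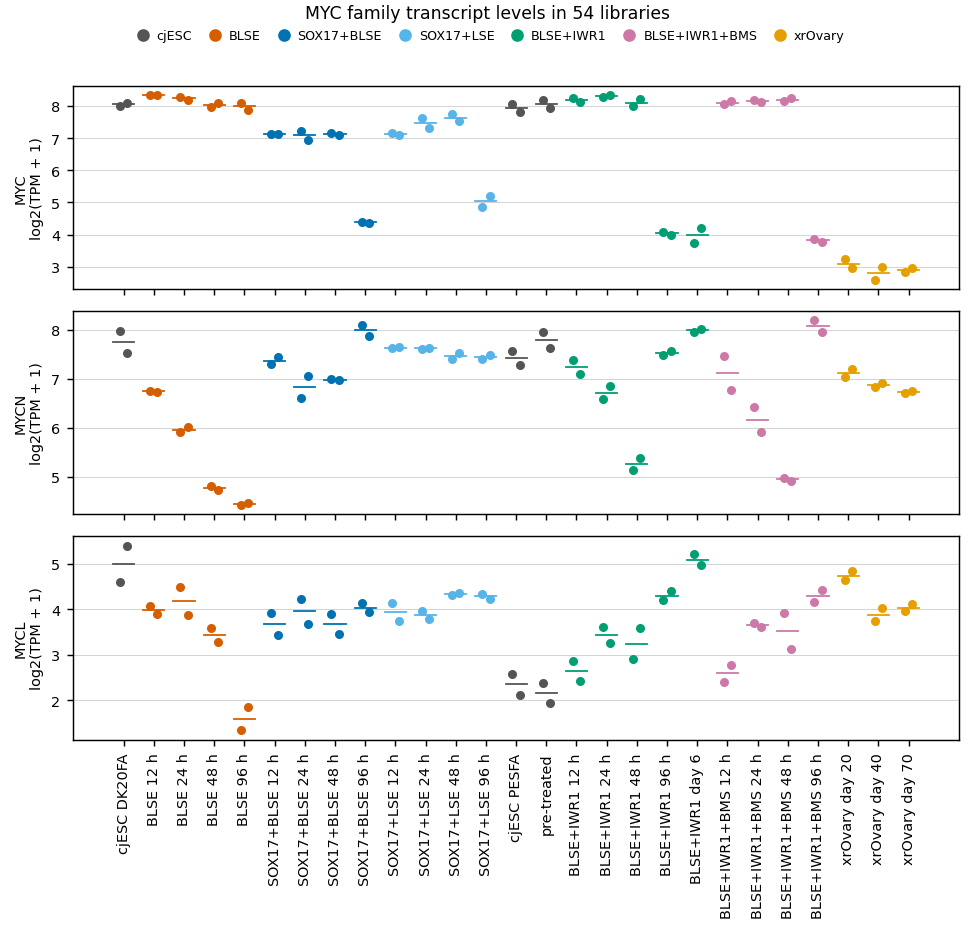
Levels of MYC, MYCN and MYCL as log2(TPM + 1), with 1 point per library, a bar at the mean of 2 libraries and conditions along the horizontal axis. MYC stayed at 235.7 to 322.49 TPM in BLSE and fell to 20.12 and 19.37 TPM in SOX17+BLSE at 96 h, where MYCN stood at 274.59 and 234.05 TPM.

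The BLSE course followed these genes without SOX17 switched on, against cjESCs kept on feeder cells in DK20FA. Basal medium, feeder cells, aggregation and sort changed along with BMP4 and the other factors, and their parts cannot be told apart. MYCN was lost step by step while MYC was kept, MYCL and HMGA1 were also lower by 96 h, and HMGA2 rose. MYCN stood at 249.29 and 183.02 TPM in cjESC DK20FA, 107 and 105.91 at 12 h, 59.28 and 63.5 at 24 h, 27.08 and 25.49 at 48 h and 20.47 and 21.02 at 96 h. Each pair of BLSE libraries lay below the pair of the time before, and none overlapped cjESCs. The log2 difference from cjESCs was −1.0 ± 0.17 (SE, n = 2 libraries a group here and below) at 12 h, −1.78 ± 0.17 at 24 h, −2.98 ± 0.17 at 48 h and −3.30 ± 0.17 at 96 h, with limma's Benjamini-Hochberg adjusted p = 5.86e-05, 5.62e-10, 2.54e-16 and 4.29e-18. MYC stood at 256.04 and 274.37 TPM in cjESC DK20FA and at 269.62 and 235.7 TPM in BLSE at 96 h, so that the groups overlapped. Its log2 difference at 96 h was −0.07 with a 95% interval from −0.36 to 0.22 (adjusted p = 0.742), and that at 48 h was −0.03 ± 0.14 (adjusted p = 0.907).

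MYCL, the least abundant MYC family gene, stood at 23.39 and 41.34 TPM in cjESC DK20FA, 10.97 and 8.66 TPM in BLSE at 48 h and 1.52 and 2.59 TPM at 96 h. Its log2 differences were −1.58 ± 0.28 (adjusted p = 3.69e-05) and −3.42 ± 0.28 (adjusted p = 1.94e-12), without overlap. HMGA2 went the other way, with 9.27 and 15.99 TPM in cjESCs, 26.77 and 25.32 TPM at 12 h, 34.98 and 33.79 TPM at 24 h, 34.47 and 51.66 TPM at 48 h and 173.07 and 146.39 TPM at 96 h, the 2 highest HMGA2 values of the series. All 8 BLSE libraries lay above both cjESC libraries, and the log2 difference at 96 h was 3.60 ± 0.38 (adjusted p = 6.51e-10). HMGA1, its relative, fell from 297.03 and 205.63 TPM to 115.42 and 121.94 TPM at 96 h, a log2 difference of −1.05 ± 0.17 (adjusted p = 3.52e-06). LIN28A stood at 1614.61 and 1294.58 TPM in cjESCs and 865.14 and 905.88 TPM at 48 h, with a log2 difference of −0.71 ± 0.13 (adjusted p = 6.14e-05). At 96 h it stood at 1220.91 and 1014.17 TPM and did not pass the test (log2 difference −0.38, adjusted p = 0.0205).

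At adjusted p under 0.01, 3 of the 8 genes were called at 12 h (7.41% of all genes tested were called in either direction), 5 at 24 h (11.7%), 7 at 48 h (19.8%) and 6 at 96 h (29.5%). All calls were of lower levels except HMGA2 at 24, 48 and 96 h. Of these 21 calls, 9 held with each library left out in turn. They were MYCN at 24, 48 and 96 h, MYCL at 48 and 96 h, LIN28A at 24 and 48 h, and HMGA1 and HMGA2 at 96 h. The other 12 were lost in at least 1 such fit, with adjusted p from 0.01 to 0.169. MYCN at 12 h was lost only without cjESC DK20FA replicate 1, with adjusted p = 0.0113, and 9 of the 21 calls were left without that library. HMGA2 at 48 h was lost without cjESC DK20FA replicate 1 (adjusted p = 0.0329) or BLSE 48 h replicate 2 (adjusted p = 0.0245). HMGA2 at 24 h was lost without cjESC DK20FA replicate 1 (adjusted p = 0.143) or BLSE 24 h replicate 1 or 2 (adjusted p = 0.0339 and 0.0391). In fits of only the 4 libraries compared, 3 of the 21 calls remained, MYCN at 48 and 96 h and HMGA2 at 96 h.

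In the same medium with SOX17 switched on, MYC was lower at all 4 times and MYCN was higher from 24 h on than in BLSE. With SOX17, MYCN was above MYC in both libraries at 12 h, and at 24 h in replicate 2 but not in replicate 1. MYC was above MYCN in both libraries at 48 h, and MYCN was far above MYC at 96 h, in sorted cells. With SOX17, MYC stood at 139.07 and 138.6 TPM at 12 h, against 322.49 and 320.5 TPM without it. At 48 h the values were 141.57 and 134.37 TPM against 249.28 and 269.57 TPM. At 96 h they were 20.12 and 19.37 TPM against 269.62 and 235.7 TPM. The groups did not overlap at any of the 4 times, and the log2 difference was −1.21 ± 0.14 at 12 h (adjusted p = 4.56e-07), −1.15 ± 0.14 at 24 h (3.42e-07), −0.91 ± 0.14 at 48 h (7.44e-06) and −3.61 ± 0.14 at 96 h (1.64e-21). With SOX17, MYCN stood at 156.51 and 172.21 TPM at 12 h, 97.25 and 131.48 TPM at 24 h, 125.8 and 124.23 TPM at 48 h and 274.59 and 234.05 TPM at 96 h, above the BLSE libraries of the same time in each case. The difference passed the test at 24 h (0.87 ± 0.17, adjusted p = 0.000325), 48 h (2.21 ± 0.17, adjusted p = 1.32e-12) and 96 h (3.55 ± 0.17, adjusted p = 2.37e-19), and at 12 h it was 0.62 ± 0.17 (adjusted p = 0.0235). The rise of the MYCN difference from 12 to 48 h, both with all cells taken, was 1.59 ± 0.24 on the log2 scale (adjusted p = 3.5e-05; 2.46% of genes were called in this test of the difference of differences, 1 of the 8 genes among them, 2 under median-ratio scaling).

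MYCL was called at 96 h only, with 16.61 and 14.38 TPM when SOX17 was on and 1.52 and 2.59 TPM in BLSE (log2 difference 2.45 ± 0.28, adjusted p = 3.02e-09). MAX, the shared partner, stood at 45.97 and 71.17 TPM with SOX17 and 66.9 and 68.95 TPM without it at 96 h, and was called at none of the 4 times. LIN28A was lower with SOX17 at 48 h, with 623.85 and 577.15 TPM (−0.56 ± 0.13, adjusted p = 0.00135). It was also lower at 96 h, with 703.09 and 640.93 TPM (−0.73 ± 0.13, adjusted p = 1.36e-05). The 48 h call was lost without BLSE replicate 2 (adjusted p = 0.0227) or SOX17+BLSE replicate 2 (adjusted p = 0.028). LIN28B stood at 100.22 and 103.66 TPM with SOX17 against 282.9 and 230.51 TPM at 96 h (−1.32 ± 0.20, adjusted p = 1.01e-06), and was not called before 96 h. HMGA1, at 45 and 56.61 TPM against 115.42 and 121.94 TPM, was lower at 96 h (−1.22 ± 0.17, adjusted p = 1.45e-07).

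HMGA2 showed the widest gap of the 8 genes at 96 h, in sorted against unsorted cells. At 12 h its log2 difference was −0.72, narrower than that of MYC at −1.21. With SOX17 it stood at 18.09 and 13.04 TPM at 12 h, 11.4 and 12.79 TPM at 24 h, 7.58 and 8.45 TPM at 48 h and 1.57 and 1.54 TPM at 96 h, always below both BLSE libraries. The log2 difference was −1.44 ± 0.38 at 24 h (adjusted p = 0.0081), −2.26 ± 0.38 at 48 h (adjusted p = 1.71e-05) and −5.97 ± 0.38 at 96 h (adjusted p = 7.13e-16). The 24 h call was lost without any 1 of the 4 libraries compared, with adjusted p of 0.0431 and 0.0516 without BLSE replicates 1 and 2 and 0.0706 and 0.0383 without SOX17+BLSE replicates 1 and 2. The MYCN call at 24 h was lost without SOX17+BLSE replicate 2 (adjusted p = 0.034). In counts, 1 of the 8 genes was called at 12 h (2.4% of all genes), 3 at 24 h (7.56%), 4 at 48 h (16.7%) and 7 at 96 h (45.4%). In fits of only the libraries compared, 8 of these 15 calls remained, namely MYC and MYCN at 48 h and all calls at 96 h but LIN28A, while MYC at 12 h had adjusted p = 0.112 and at 24 h 0.075. Beside these values, the summed pluripotency markers other than LIN28A were 7622.68 and 7004.81 TPM with SOX17 at 96 h, against 396.71 and 380.26 TPM. Most of this marker difference was that of POU5F1 (6321.37 and 5730.21 against 103.34 and 124.54 TPM) and NANOG (924.82 and 891.36 against 1.46 and 2.17 TPM). PRDM14 and SALL4 were higher too, DPPA4 overlapped, and SOX2 was low on both sides (0.82 and 1.3 against 2.08 and 1.01 TPM). The part of the sort and of this marker difference in the 96 h values was not tested.

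Whether these differences themselves changed between times was also tested, for the pairs of times beyond 12 and 48 h as an addition made after the data were seen. For SOX17, 1 of the 8 genes was called from 24 to 48 h (0.464% of all genes), 7 from 12 to 96 h (25.2%), 6 from 24 to 96 h (21%) and 5 from 48 to 96 h (15.5%). For the later comparison of the IWR1 course with BLSE, 7 were called from 12 to 96 h (25%), 8 from 24 to 96 h (22.4%) and 6 from 48 to 96 h (22.9%). For BMP4, MYCN was called from 24 to 96 h (2.72%) and from 48 to 96 h (2.54%). The changes to 96 h for SOX17 and for the IWR1 course also hold the step from all cells to sorted cells on 1 side.

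Against the cjESCs they came from, SOX17+BLSE cells had lower levels of most of the 8 genes. MYCN was called lower at 24 h (−0.91 ± 0.17, adjusted p = 7.82e-05) and 48 h (−0.77 ± 0.17, adjusted p = 0.00039), but not at 96 h. At 96 h, 7 genes were called lower (43.2% of all genes were called), with log2 differences of −3.68 ± 0.14 for MYC (adjusted p = 2.06e-21), −2.27 ± 0.17 for HMGA1 (8.56e-14), −1.97 ± 0.20 for LIN28B (2.84e-10), −2.37 ± 0.38 for HMGA2 (2.19e-06), −1.11 ± 0.13 for LIN28A (7.11e-09), −0.97 ± 0.28 for MYCL (0.00434) and −0.74 ± 0.15 for MAX (5.47e-05). MYCN at 274.59 and 234.05 TPM stood beside 249.29 and 183.02 TPM in cjESCs, overlapping, with a log2 difference of 0.25 and a 95% interval from −0.10 to 0.59 (adjusted p = 0.222). The MYCL call was lost without cjESC DK20FA replicate 2 (adjusted p = 0.163) or SOX17+BLSE 96 h replicate 1 or 2 (adjusted p = 0.0134 and 0.0413), and the MAX call without SOX17+BLSE 96 h replicate 1 (adjusted p = 0.024). Earlier, 3 genes were called at 12 h (9.82% of all genes), 6 at 24 h (16.8%) and 7 at 48 h (26.3%), all lower, and MYC was among them at each time with differences of −0.93 to −0.97. Of the 23 calls of this course, 11 held with each library left out in turn, and 5 in fits of only the libraries compared.

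In the SOX17+LSE course, without BMP4, MYC was again lowest at 96 h, in sorted cells. MYC stood at 141.98 and 135.08 TPM at 12 h, 197.58 and 156.73 TPM at 24 h, 211.98 and 182.33 TPM at 48 h and 28.18 and 35.81 TPM at 96 h, below cjESCs at every time. The log2 difference from cjESCs was −0.93 ± 0.14 at 12 h (adjusted p = 1.5e-05) and −3.02 ± 0.14 at 96 h (adjusted p = 9.5e-19), and at 48 h it was −0.43 ± 0.14 (adjusted p = 0.0285). In this course 4 of the 8 genes were called at 12 h (8.35% of all genes), 4 at 24 h (11.2%), 2 at 48 h (13.5%) and 6 at 96 h (33.8%), all lower. Of these 16 calls, 5 held with each library left out in turn (MYC at 12 and 96 h, and MAX, LIN28B and HMGA1 at 96 h), 8 remained without cjESC DK20FA replicate 1, and 3 in fits of only the libraries compared. MYCN was called at no time and stood at 167.77 and 176.99 TPM at 96 h (log2 difference −0.31, adjusted p = 0.138). These courses and BLSE share the cjESC DK20FA libraries as controls.

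BMP4 itself, compared as SOX17+BLSE with SOX17+LSE, was followed by few calls among the 8 genes. At 12 h limma called 0 of them, 0 having an unadjusted p under 0.05 (0.277% of all genes were called). At 24 h MYCN was lower with BMP4 (97.25 and 131.48 TPM against 194.95 and 196.24 TPM, log2 difference −0.79 ± 0.17, adjusted p = 0.00251; 2.62% of all genes). At 48 h LIN28A was lower (623.85 and 577.15 TPM against 956.21 and 889.45 TPM, −0.62 ± 0.13, adjusted p = 0.000853; 8.01%). At 96 h MYC was lower (20.12 and 19.37 TPM against 28.18 and 35.81 TPM, −0.66 ± 0.14, adjusted p = 0.0014; 7.11%). The groups did not overlap in these 3 cases, but each call was lost in some fits without a library and in fits of only the libraries compared, where 0 calls remained. MYCN was lost without SOX17+BLSE replicate 1 (adjusted p = 0.152) or SOX17+LSE replicate 1 or 2 (0.0341 and 0.0304), LIN28A without SOX17+BLSE replicate 2 (0.0231) or SOX17+LSE replicate 1 (0.0229), and MYC without SOX17+BLSE replicate 1 or 2 (0.0114 and 0.0202) or SOX17+LSE replicate 2 (0.0759). The 3 calls became 7 under median-ratio scaling and 5 under quantile normalization. The change of the BMP4 difference from 12 to 48 h was called for 0 of the 8 genes by limma (3 at unadjusted p under 0.05; 1.26% of all genes).

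The culture medium and line were compared in cjESCs. MYCL differed most, with 4.97 and 3.36 TPM in PESFA and 23.39 and 41.34 TPM in DK20FA (log2 difference −2.66 ± 0.28, adjusted p = 4.63e-09). HMGA2 was called higher in PESFA (1.53 ± 0.38, adjusted p = 0.00241), but its PESFA libraries stood at 16.29 and 82.69 TPM against 9.27 and 15.99 TPM in DK20FA, and without PESFA replicate 2 the difference was 0.39 (adjusted p = 0.491), without DK20FA replicate 1 1.16 (adjusted p = 0.0761). These 2 genes were the only calls of the 8 (16.8% of all genes), with 1 left at a pseudocount of 0.1 and 0 in a fit of only these libraries, where MYCL had adjusted p = 0.0693. Medium and line cannot be told apart here. The feeder or stromal markers given above were higher in PESFA, with sums of 2955.68 TPM in replicate 1 and 1744.88 TPM in replicate 2, where HMGA2 was higher. The part of such cells in these values was not tested. Pre-treatment with IM12 and activin A was followed by 0 limma calls among the 8 genes (2 at unadjusted p under 0.05; 0.304% of all genes), with MYC at 290.75 and 246.39 TPM and MYCN at 245.28 and 197.28 TPM in pre-treated cells.

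Along the IWR1 course MYCN fell and came back while MYC held and then fell. MYCN stood at 245.28 and 197.28 TPM in pre-treated cells, 164.81 and 136.67 TPM at 12 h, 94.85 and 114.19 TPM at 24 h and 34.29 and 40.81 TPM at 48 h, the last with a log2 difference of −2.52 ± 0.17 (adjusted p = 2.76e-14). In tdTomato-positive cells it stood at 179.32 and 187.92 TPM at 96 h and 247.32 and 258.25 TPM at day 6, and did not pass the test against pre-treated cells at either time (−0.26, adjusted p = 0.201, and 0.20, adjusted p = 0.334). MYC stood at 252.11 and 295.06 TPM at 48 h, 15.94 and 14.88 TPM at 96 h and 12.34 and 17.55 TPM at day 6, with log2 differences from pre-treated cells of −4.03 ± 0.14 (adjusted p = 2.77e-22) and −4.09 ± 0.14 (adjusted p = 1.14e-22). MYCL rose from 4.21 and 2.81 TPM to 17.34 and 20.26 TPM at 96 h (2.15 ± 0.28, adjusted p = 7.37e-08) and 36.18 and 30.46 TPM at day 6 (2.94 ± 0.28, adjusted p = 5.28e-11). Because all cells were taken to 48 h and sorted cells afterwards, the step from 48 to 96 h is given by its values without a test.

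At day 6, MAX stood at 46.56 and 42.6 TPM against 89.98 and 94.81 TPM before induction (−1.04 ± 0.15, adjusted p = 2.02e-07). Both let-7 blockers were lower, LIN28A at 919.34 and 811.49 TPM (−0.62 ± 0.13, adjusted p = 0.000126) and LIN28B at 117.07 and 100.13 TPM (−1.33 ± 0.20, adjusted p = 9.01e-07). Both HMGA genes were lower too, HMGA1 at 61.57 and 52.77 TPM (−2.22 ± 0.17, adjusted p = 1.44e-13) and HMGA2 at 2.31 and 1.49 TPM (−2.56 ± 0.38, adjusted p = 5.13e-07). None of these libraries overlapped the pre-treated ones. Of the 8 genes, 0 were called at 12 h (2 at unadjusted p under 0.05; 6.79% of all genes by limma), 2 at 24 h (9.46%), 4 at 48 h (19.2%), 6 at 96 h (40.1%) and 7 at day 6 (42.1%). All 13 calls at 96 h and day 6 held with each library left out, and 12 of them in fits of only the libraries compared. Of the 6 earlier calls, those of MYCN held, and MYCL at 24 h was lost without pre-treated replicate 2 (adjusted p = 0.0536) or BLSE+IWR1 24 h replicate 1 (0.0392). The 48 h calls of MYCL were lost without pre-treated replicate 2 (0.0791) or BLSE+IWR1 48 h replicate 2 (0.0971), those of MAX without BLSE+IWR1 48 h replicate 2 (0.0108), and those of LIN28A without replicate 1 (0.0104).

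**Figure D2:**
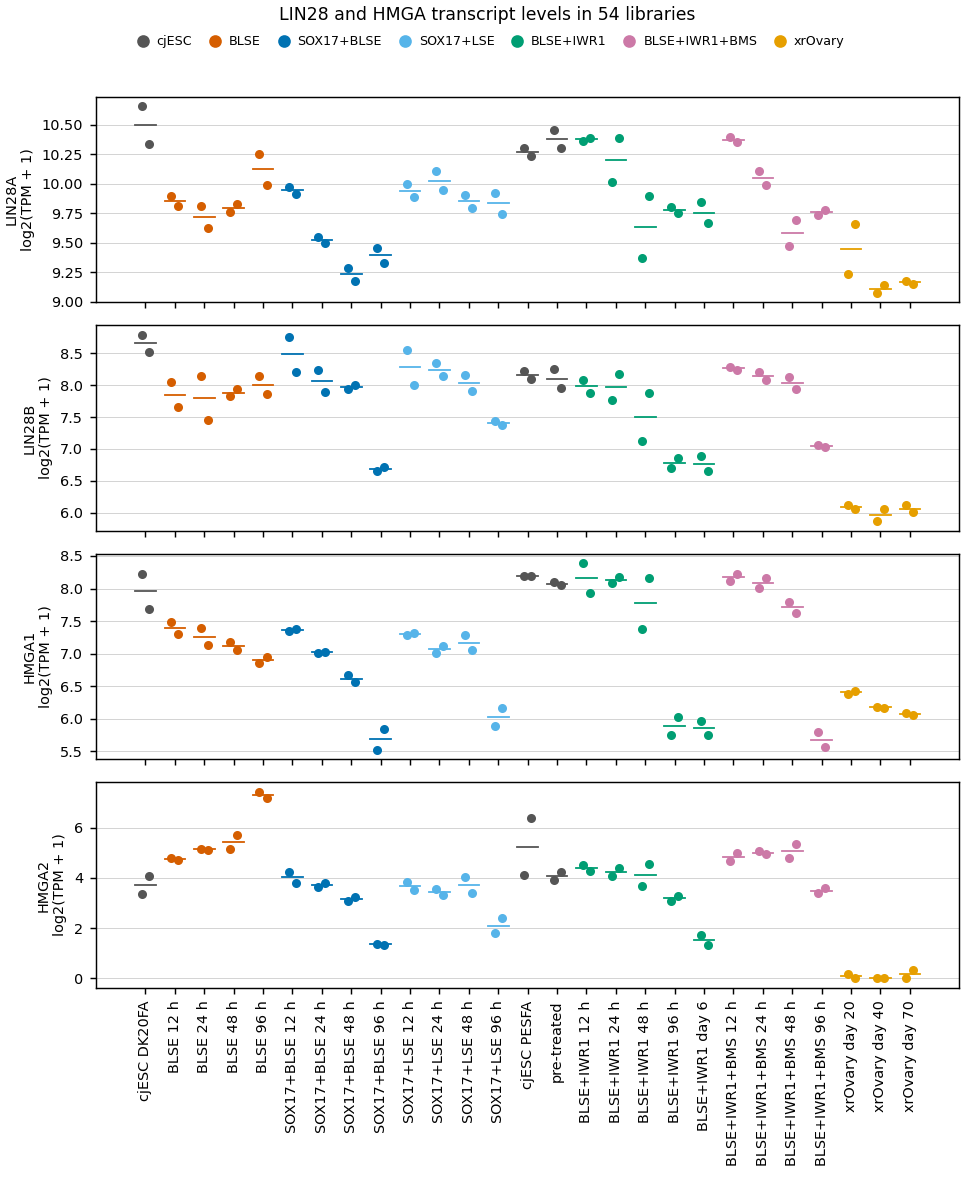
Levels of LIN28A, LIN28B, HMGA1 and HMGA2 as log2(TPM + 1), with 1 point per library, a bar at the mean of 2 libraries and its own vertical axis for each gene. HMGA2 was highest in BLSE at 96 h (173.07 and 146.39 TPM) and at or near 0 in xrOvary, and LIN28A stayed above 538 TPM throughout.

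With BMS493 added to IWR1, MYCN was again low at 48 h and MYC low at 96 h. MYCN stood at 30.54 and 29.35 TPM at 48 h and 291.29 and 246.96 TPM at 96 h, and MYC at 282.68 and 301.48 TPM and then 13.59 and 12.67 TPM. Against pre-treated cells, which this course shares with the IWR1 course, 1 gene was called at 12 h (6.53% of all genes), 2 at 24 h (12.3%), 3 at 48 h (19.5%) and 6 at 96 h (38%). The 12 h call, MYCN, was lost without pre-treated replicate 1 (adjusted p = 0.102) or 2 (0.0105) or BLSE+IWR1+BMS 12 h replicate 2 (0.401), whose MYCN value was 107.9 TPM against 174.64 TPM in replicate 1. MYCL was lost at 24 h without pre-treated replicate 2 (0.0123) and at 48 h without that library (0.0163) or BLSE+IWR1+BMS 48 h replicate 1 (0.0324), and the other 9 of the 12 calls held. Compared directly with BLSE+IWR1, limma called 0 of the 8 genes at 12 h (0% of all genes), 24 h (0.0893%), 48 h (4.83%) and 96 h (0.732%), with 0, 1, 3 and 1 genes at an unadjusted p under 0.05. The widest difference was that of HMGA2 at 48 h (27.03 and 39.43 TPM with BMS493, 11.8 and 22.55 TPM without; 0.96 ± 0.38, 95% interval 0.19 to 1.72, adjusted p = 0.0939). MYCN at 96 h was higher with BMS493, without overlap (means of 269.125 against 183.62 TPM, log2 difference 0.54), but was not called. With 2 libraries a group, the absence of calls does not show that the 8 genes were unchanged. The change of the BMS493 difference from 12 to 48 h was called for 0 of the 8 genes by limma (0 at unadjusted p under 0.05; 0.0893% of all genes).

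The IWR1 course was also set against BLSE without IWR1, where line, medium and pre-treatment differ as well. At 12, 24 and 48 h, 3, 3 and 2 of the 8 genes were called (13.8%, 14.6% and 21.2% of all genes), and each of these 8 calls was lost in some fit without a library. At 96 h, 7 genes were called (44.1% of all genes), and all held. The log2 difference was −3.95 ± 0.14 for MYC (adjusted p = 1.44e-22). It was −4.13 ± 0.38 for HMGA2 (adjusted p = 1.26e-11), at 7.56 and 8.71 TPM against 173.07 and 146.39 TPM. MYCN was higher by 3.09 ± 0.17 (adjusted p = 1.35e-17) and MYCL by 2.71 ± 0.28 (adjusted p = 3.1e-10). MAX, LIN28B and HMGA1 were lower, with differences of −0.91 ± 0.15, −1.22 ± 0.20 and −1.0 ± 0.17 (adjusted p = 2.08e-06, 3.7e-06 and 4.65e-06). Here too sorted cells were compared with unsorted cells.

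Between the tdTomato-positive cells of both routes at 96 h, 2 of the 8 genes were called (6.08% of all genes). HMGA2 stood at 7.56 and 8.71 TPM with IWR1 and 1.57 and 1.54 TPM with SOX17 (1.84 ± 0.38, adjusted p = 0.000877), and MAX at 38.47 and 33.18 TPM and 45.97 and 71.17 TPM (−0.66 ± 0.15, adjusted p = 0.00172). Both calls were lost without SOX17+BLSE 96 h replicate 2 (adjusted p = 0.0156 and 0.209) or BLSE+IWR1 96 h replicate 2 (0.0194 and 0.0542), and in a fit of only these 4 libraries. For MYC, at 15.94 and 14.88 TPM against 20.12 and 19.37 TPM, the log2 difference was −0.34 with a 95% interval from −0.63 to −0.05 (adjusted p = 0.129).

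Day 6 cells differed from the cjESC PESFA they derived from in all 8 genes (44.9% of all genes were called), 6 lower and MYCN and MYCL higher. MYCN rose from 189.57 and 155.35 TPM to 247.32 and 258.25 TPM (0.56 ± 0.17, adjusted p = 0.00535) and MYCL from 4.97 and 3.36 TPM to 36.18 and 30.46 TPM (2.74 ± 0.28, adjusted p = 2.46e-10). The log2 difference was −3.96 ± 0.14 for MYC (adjusted p = 3.87e-22) and −3.73 ± 0.38 for HMGA2 (adjusted p = 1.67e-10). The HMGA2 value rests on cjESC PESFA libraries at 16.29 and 82.69 TPM, and it was −4.87 without replicate 1 and −2.59 without replicate 2 (adjusted p = 2.5e-14 and 5.86e-08). The MYCN call was lost without cjESC PESFA replicate 2 (adjusted p = 0.0998) or day 6 replicate 1 or 2 (0.0209 and 0.0382) and under median-ratio scaling (0.33, adjusted p = 0.0955). The LIN28A call (−0.51 ± 0.13, adjusted p = 0.00115) was lost without cjESC PESFA replicate 1 (0.0144) or day 6 replicate 2 (0.0303).

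At day 70 in xrOvary the 3 MYC family genes were lower than at day 6, MYCN remained the most abundant of them, and HMGA2 was listed at or near 0. MYC stood at 8.34 and 6.7 TPM at day 20, 5.01 and 6.98 TPM at day 40 and 6.11 and 6.85 TPM at day 70, all below day 6. MYCN stood at 130.23 and 146.49 TPM, 113.32 and 119.46 TPM, and 104.43 and 107.19 TPM. At day 70 against day 6, the log2 difference was −1.07 ± 0.14 for MYC (adjusted p = 1.01e-07) and −1.25 ± 0.17 for MYCN (adjusted p = 1.2e-07). HMGA2 was listed at 0.12 and 0 TPM at day 20, 0 and 0 TPM at day 40 and 0 and 0.25 TPM at day 70, against 2.31 and 1.49 TPM at day 6. It was called lower at day 20 (adjusted p = 0.0034) and day 70 (adjusted p = 0.00367) against day 6, and no fold is given against values listed at 0. HMGA1 stood at 82.77 and 84.87 TPM at day 20 and 66.87 and 65.49 TPM at day 70, above day 6 at 61.57 and 52.77 TPM, with a log2 difference of 0.21 at day 70 (adjusted p = 0.345). LIN28A at 578.64 and 566.5 TPM and LIN28B at 68.4 and 63.33 TPM at day 70 were lower than at day 6, with differences of −0.59 ± 0.13 (adjusted p = 0.000343) and −0.71 ± 0.20 (adjusted p = 0.00466).

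Of the 8 genes, 4 were called at day 20 against day 6 (20.4% of all genes), 0 at day 40 against day 20 (3 at unadjusted p under 0.05; 4.6% by limma), 0 at day 70 against day 40 (0 at unadjusted p under 0.05; 2.73%) and 7 at day 70 against day 6 (31.3%), all lower. Of these 11 calls, those of MYC and MYCN at both times held with each library left out in turn, and these 4 were the calls left without day 6 replicate 1. Without day 70 replicate 1, 4 of the 7 day 70 calls were lost, and 4 without replicate 2. Without day 6 replicate 1, adjusted p at day 70 was 0.0393 for MYCL, 0.0721 for MAX, 0.0154 for LIN28A, 0.0672 for LIN28B and 0.057 for HMGA2, and at day 20 it was 0.113 for LIN28B and 0.0581 for HMGA2. Without day 70 replicate 1, MYCL, MAX, LIN28B and HMGA2 had adjusted p of 0.0295, 0.0136, 0.0179 and 0.0473, and without day 70 replicate 2 of 0.012, 0.0851, 0.0429 and 0.0107. Scaling moved the median of all genes in this comparison by 0.25 (median ratio) and 0.30 (quantile) on the log2 scale, and under both scalings MYCL, MAX, LIN28A and LIN28B were no longer called, with MAX at −0.22 and −0.18. In a fit of only the libraries compared, MYCN at day 70 was the 1 call left. Later germ cell markers summed to 7.36 and 7.43 TPM at day 6 and 127.48 and 132.39 TPM at day 70, and gonadal somatic markers to 0.23 and 1.03 TPM at day 70.

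**Figure D3:**
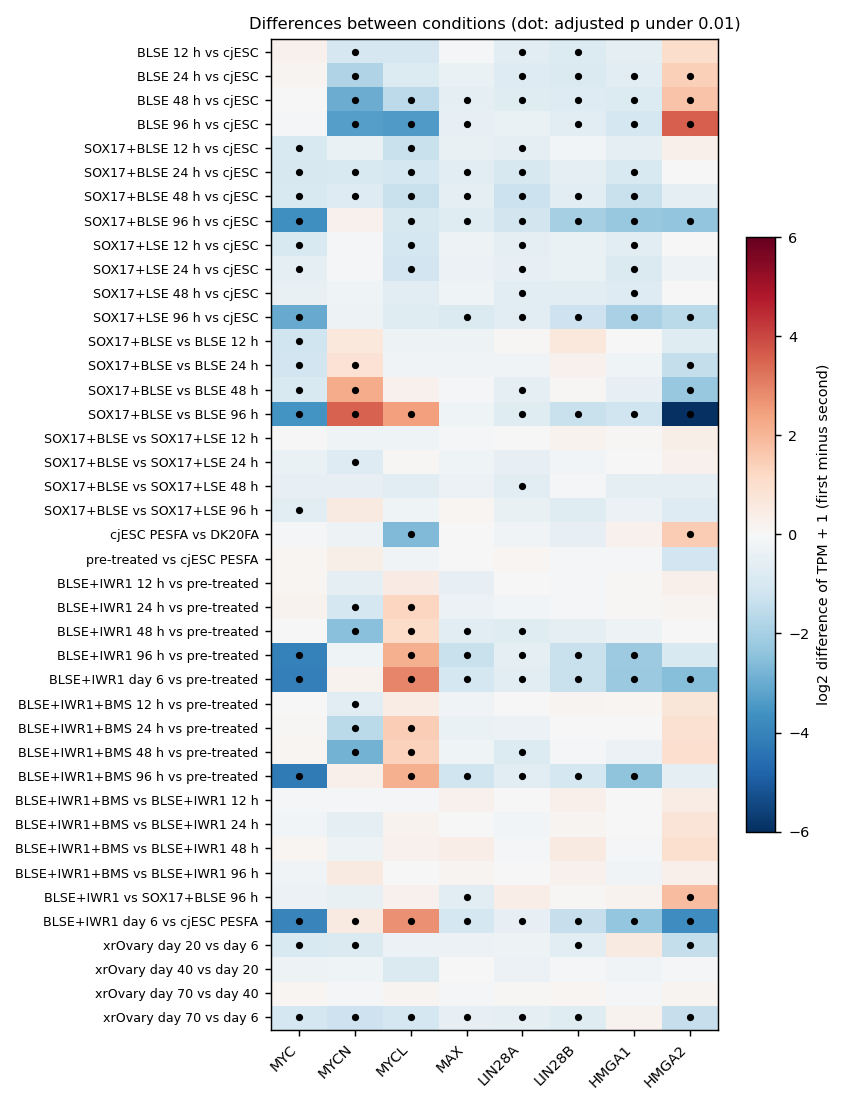
Differences of log2(TPM + 1) for the 8 genes in the comparisons named on the left (first minus second condition, red higher in the first), with a dot where limma's adjusted p was under 0.01. MYC and MYCN take opposite signs in SOX17+BLSE vs BLSE at all 4 times, and HMGA2 has the widest difference, −5.97 at 96 h.

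Between SOX17+BLSE and BLSE at 96 h, MYC and MYCN differed in opposite directions, and their summed TPM differed less than either gene. The sum of MYC, MYCN and MYCL was 528.72 and 498.73 TPM in cjESC DK20FA, 291.61 and 259.31 TPM at 96 h of BLSE and 311.32 and 267.8 TPM at 96 h of SOX17+BLSE, with overlap between the last pair of groups. MYCN made up 47.1% and 36.7% of the sum in cjESC DK20FA, 7.02% and 8.11% in BLSE at 96 h and 88.2% and 87.4% in SOX17+BLSE at 96 h. In the IWR1 course its share was 11.7% and 11.8% at 48 h in all cells and 84.3% and 84.2% at 96 h in sorted cells. At day 70 the sum was 125.19 and 130.34 TPM, the lowest pair among the conditions given here, and MYCN made up 83.4% and 82.2% of it. These sums are descriptions and were not tested.

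**Figure D4:**
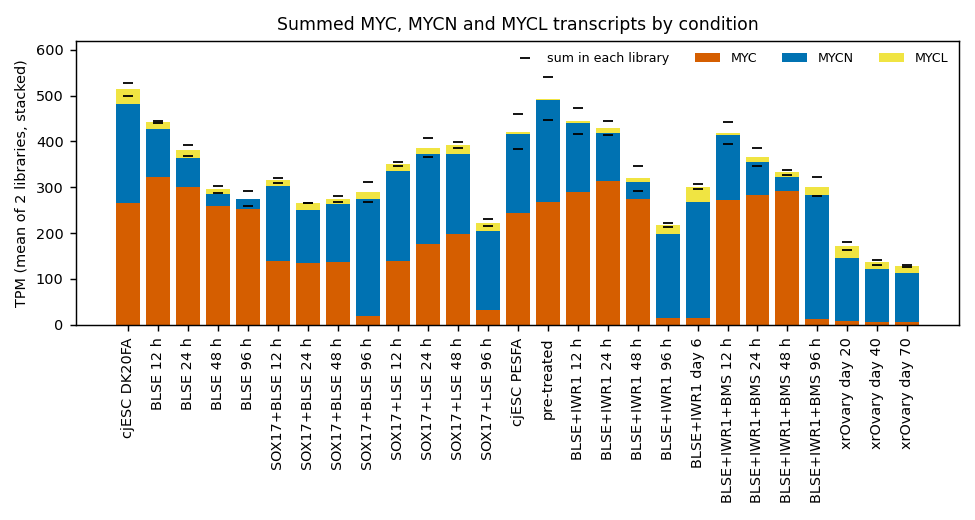
Mean TPM of MYC, MYCN and MYCL stacked by condition (bars, from 0), with the sum in each of 2 libraries as dashes. In BLSE at 96 h most of the bar is MYC and in SOX17+BLSE at 96 h most is MYCN, at sums of 259.31 to 291.61 and 267.8 to 311.32 TPM.

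The order of levels over conditions was in most places finer than the spread. Of 26 neighbouring pairs in the order of condition means, 21 lay within the standard deviations of the 2 conditions for MYC, 18 for MYCN, 25 each for MYCL, MAX and LIN28A, 23 for LIN28B, 19 for HMGA1 and 22 for HMGA2. For MYC the gaps beyond the spread were those below SOX17+LSE at 24 h, SOX17+BLSE at 24 h, SOX17+LSE at 96 h, SOX17+BLSE at 96 h and BLSE+IWR1+BMS at 96 h. All cjESC, pre-treated, BLSE and early IWR1 conditions ranked above every SOX17 condition, and the last gap set xrOvary below all others. For HMGA2 the gaps lay below BLSE at 96 h, BLSE at 12 h, SOX17+BLSE at 48 h and SOX17+BLSE at 96 h.

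Over the 27 condition means, the levels of some members ran together. Pearson's r was 0.907 between MYC and MAX, 0.908 between MYC and LIN28B, 0.862 between MYC and HMGA1, 0.859 between MYC and HMGA2 and 0.912 between MAX and LIN28B, but −0.39 between MYC and MYCN and −0.511 between MYC and MYCL. Conditions of one course share a line and medium, so these values are descriptions. Genes with a pattern much like that of MYC included UHRF1, a factor for maintenance DNA methylation (r = 0.987), and NAA20 (r = 0.984). UHRF1 condition means ran from 5.705 to 155.12 TPM. For MYCN the most alike were TXLNG, UBE3D and UTF1 (0.921, 0.874 and 0.865), the last a chromatin factor of pluripotent cells, and for MYCL GPR27, TARBP1 and KLF10 (0.825, 0.815 and 0.811). For MAX they were PTP4A1, CAPZA2 and LSM12 (0.958, 0.954 and 0.95), for LIN28A NR5A2, ARL6 and PPIL4 (0.888, 0.885 and 0.867). For LIN28B they were GOT2, SREBF2 and SLC2A1 (0.966, 0.966 and 0.965). For HMGA1 they were DDAH1, ATP1A4 and CA13 (0.97, 0.96 and 0.957) and for HMGA2 ENO1, S1PR2 and CTHRC1 (0.939, 0.936 and 0.93).

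The genes around these regulators were read from 7 lists. Among 32 tested MYC targets of 40 listed, mostly genes for ribosome production, growth and metabolism, 8 were higher and 10 lower in SOX17+BLSE than in BLSE at 96 h (3 and 11 under median-ratio scaling, 9 and 8 under quantile normalization; 45.4% of all genes were called), where MYC was lower and MYCN higher. The median log2 difference of the list was 0.05 beside 0.24 over all genes, and the list lay below all genes under median-ratio scaling and above them under quantile normalization. The largest called differences were those of SHMT2, a mitochondrial serine enzyme (12.29 ± 0.113 against 45.545 ± 5.11 TPM, mean ± SD; −1.80 ± 0.19 SE, adjusted p = 2.05e-10), NOP56, a nucleolar protein (322.225 ± 15.4 against 1006.12 ± 6.85 TPM; −1.64 ± 0.10, adjusted p = 1.95e-16), and the cyclin gene CCND2 (10.45 ± 3.96 against 2.71 ± 0.226 TPM; 1.58 ± 0.28, adjusted p = 1.13e-05). NOP56 was also lower at 48 h, where 2 targets were higher and 2 lower (0 and 5 under median-ratio scaling, 1 and 3 under quantile normalization) and 16.7% of all genes were called. In BLSE at 96 h against cjESCs, 0 targets were higher and 6 lower, where 29.5% of all genes were called, led by CCND2, the chromatin protein gene PTMA (1974.96 ± 111 against 4010.59 ± 467 TPM) and ODC1, the first enzyme of polyamine synthesis. At day 6 against pre-treated cells 5 were higher and 13 lower, where 42.1% of all genes were called, with NOP56 at 275.24 ± 4.45 against 829.85 ± 66.6 TPM.

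Among 5 tested genes of the network around MAX and the related MLX, 4 were higher in SOX17+BLSE than in BLSE at 96 h and 0 lower (2 and 0 under both scalings). In this comparison 45.4% of all genes were called, and 64.5% of those calls were higher (46.4% under median-ratio scaling). The 4 genes included MLXIP, a glucose-sensing factor that pairs with MLX (2.12 ± 0.21, adjusted p = 1.1e-10), and the MYC antagonists MXD3 (1.68 ± 0.25, adjusted p = 4.48e-07) and MXI1 (0.76 ± 0.24, adjusted p = 0.00756). At day 6 against pre-treated cells 3 were higher and 0 lower (42.1% of all genes were called), with MXD3 at 31 ± 2.32 against 4.385 ± 0.403 TPM.

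Of 17 tested let-7 targets, 8 were lower and 2 higher in SOX17+BLSE than in BLSE at 96 h, where 45.4% of all genes were called. Of those calls over all genes, 64.5% were higher (46.4% under median-ratio scaling). The targets were led by PRTG (30.54 ± 1.43 against 153.065 ± 39.0 TPM; −2.27 ± 0.26, adjusted p = 2.51e-09), the kinase gene CDK6 (−1.84 ± 0.23, adjusted p = 1.25e-08) and ARID3A (−1.77 ± 0.40, adjusted p = 0.000321). At day 70 against day 6, 9 were lower and 1 higher (6 and 1 under both scalings), led by ARID3A at 0.445 ± 0.247 against 16.73 ± 5.29 TPM. In that comparison 31.3% of all genes were called, and 23.8% of those calls were higher (44.8% under median-ratio scaling). PRTG went up by 1.72 ± 0.26 in BLSE at 96 h against cjESCs (adjusted p = 1.16e-06), where 2 targets were higher and 4 lower (29.5% of all genes were called). Of 10 tested genes for let-7 maturation and decay, 3 were higher in SOX17+BLSE than in BLSE at 96 h and 0 lower (45.4% of all genes were called), but 1 and 2 under median-ratio scaling and 1 and 1 under quantile normalization. They were AGO1, the nuclear export factor XPO5 (0.90 ± 0.18, adjusted p = 4.09e-05) and TUT7, which adds uridines to let-7 precursors bound by LIN28A (0.66 ± 0.22, adjusted p = 0.00972). The microRNAs themselves are not measured in poly(A) libraries.

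Other high mobility group proteins bind nucleosomes or bend DNA. Of 6 tested, 3 were lower and 0 higher in SOX17+BLSE than in BLSE at 96 h, HMGN2 (127.375 ± 13.1 against 491.53 ± 10.7 TPM; −1.94 ± 0.11, adjusted p = 2e-17), HMGB1 (−1.79 ± 0.10, adjusted p = 9.47e-18) and HMGN5 (−1.73 ± 0.20, adjusted p = 3.94e-09). HMGN2 and HMGB1 were also lower at 48 h, with differences of −0.79 ± 0.11 and −0.74 ± 0.10 (adjusted p = 6.34e-07 and 2.6e-07). The percentages of all genes called in these comparisons, given above, were 45.4% at 96 h and 16.7% at 48 h.

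Of 19 tested cell cycle genes, 10 were lower and 1 higher in SOX17+BLSE than in BLSE at 96 h (13 and 0 under median-ratio scaling, 11 and 0 under quantile normalization), where 45.4% of all genes were called. CCNE1, the cyclin of entry into S phase, stood at 45.675 ± 11.6 against 151.78 ± 5.36 TPM (−1.73 ± 0.14, adjusted p = 6.68e-13) and the DNA helicase gene MCM4 at 62.965 ± 4.26 against 152.83 ± 14.5 TPM (−1.26 ± 0.14, adjusted p = 6.76e-10). At day 70 against day 6, 5 were higher and 3 lower (8 and 0 under both scalings), where 31.3% of all genes were called, led by MCM5 at 182.43 ± 12.3 against 90.875 ± 6.95 TPM (1.0 ± 0.10, adjusted p = 4.12e-10). Of 5 tested inhibitors of cyclin-dependent kinases, CDKN1C was higher in BLSE at 96 h than in cjESCs (202.965 ± 70.9 against 28.015 ± 3.47 TPM, log2 difference 2.77 ± 0.29, adjusted p = 6.25e-10), where 29.5% of all genes were called. It was also higher than in cjESCs in SOX17+BLSE at 96 h (173.42 ± 4.96 TPM, log2 difference 2.59 ± 0.29, adjusted p = 2.12e-09). At day 6 against pre-treated cells, where 42.1% of all genes were called, CDKN1C (250.95 ± 39.2 against 41.07 ± 0.41 TPM) and CDKN1B (0.59 ± 0.19, adjusted p = 0.00727) were higher. CDKN2B was lower there (0.375 ± 0.262 against 17.535 ± 4.77 TPM, log2 difference −3.74 ± 0.35, adjusted p = 2.31e-11). At day 70 against day 6, CDKN1C was lower (8.635 ± 1.29 TPM, log2 difference −4.71 ± 0.29, adjusted p = 5.8e-16) and CDKN2C higher (1.73 ± 0.38, adjusted p = 0.000326).

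**Figure D5:**
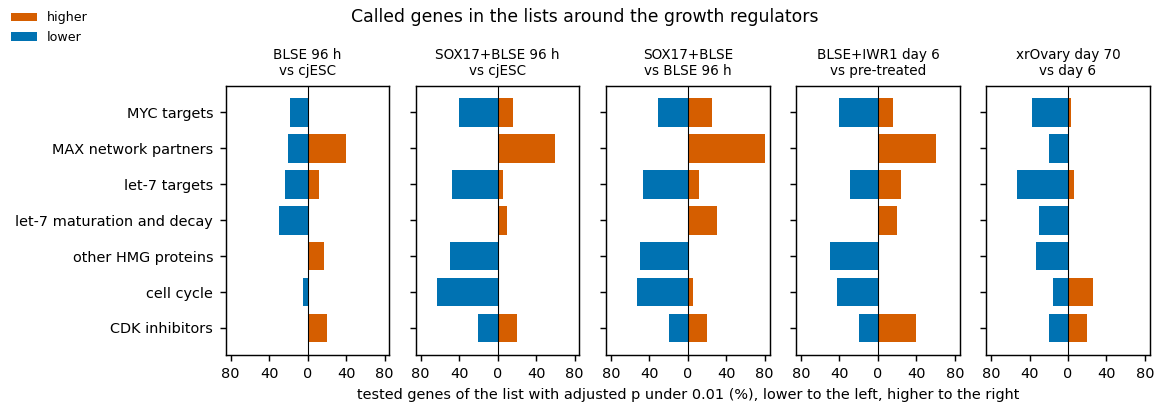
Percentage of tested genes in each of 7 lists that were called higher (orange, right) or lower (blue, left) in 5 comparisons. In SOX17+BLSE vs BLSE at 96 h, 8 of 17 let-7 targets and 10 of 19 cell cycle genes were lower and 4 of 5 MAX network partners higher, in a comparison where 45.4% of all genes were called.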

How the data were processed

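RNA from a fixed number of cells, collected with a cell sorter, was made by the authors into directional poly(A) libraries, with biological duplicates, and sequenced from one end. Reads were aligned with STAR and counted with RSEM, per the labels, and the authors deposited TPM with 2 decimals for genes shared with human. Alignments were filtered by mapping quality, which keeps some reads with several matches, so values of close paralogs remain uncertain. TPM hold no depth, so the count test used in the study could not be repeated, and all 54 sample columns were matched to labels.

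Values entered the tests as log2(TPM + 1). The 11197 genes reaching 1.5 in at least 1 library were fitted with limma 3.58.1 in R 4.3.3, with a mean for each of 27 conditions, an intensity trend, no block and 27 residual degrees of freedom. Two-sided limma tests were made for 48 comparisons, with Benjamini-Hochberg adjustment over all 11197 genes and calls at adjusted p under 0.01. Log2 differences on this scale understate changes of low genes. With 2 libraries a group an exact permutation test cannot go below p = 0.33, and the spread is that of the duplicates, pooled over conditions. The procedure was tested on simulated data. Alternatives were quantile normalization or median-ratio scaling, a pseudocount of 0.1, omission of the filter or of the trend, a block for the replicate number, fits of only the libraries compared, and each library left out. The 8 genes, the lists and the markers were chosen with earlier results of these data known. Named list genes were the up to 3 with the largest called difference in a comparison, and like genes the 3 with the highest correlation over condition means, of which 1 for MYC is not reported here. Lists share CCND2, DICER1 and SALL4, and LIN28A is also on the pluripotency list.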

Additional observations from a re-analysis of the deposited data

Results flagged for a closer look

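Tests of differences between differences at 2 times, all made in limma over all genes, called 43 values for the 8 genes, 1 of them in a test planned from the labels (48 h minus 12 h) and the others in tests added after the data were seen. Values are log2 differences at the later time minus those at the earlier time. Where 96 h enters, sorted cells stand against unsorted BLSE cells at 96 h only, and the part of the sort was not tested. With 2 libraries a condition, no single library can be tested against its group.

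For SOX17+BLSE against BLSE, MYCN changed by 1.59 from 12 to 48 h, 1.34 from 24 to 48 h, 2.93 from 12 to 96 h, 2.68 from 24 to 96 h and 1.34 from 48 to 96 h. From 12, 24 and 48 h to 96 h, MYC changed by −2.40, −2.46 and −2.70, MYCL by 2.76, 2.67 and 2.21, LIN28B by −1.95, −1.59 and −1.40, and HMGA2 by −5.25, −4.53 and −3.71. HMGA1 changed by −1.19 from 12 h and −0.98 from 24 h to 96 h, and LIN28A by −0.82 from 12 h.

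For the BMP4 comparison, the MYCN difference changed by 1.34 from 24 to 96 h and by 1.04 from 48 to 96 h, in cells that were sorted on both sides at 96 h.

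For BLSE+IWR1 against BLSE, the changes from 12, 24 and 48 h to 96 h were −3.79, −4.01 and −4.02 for MYC, 2.59, 2.33 and 2.59 for MYCN, 4.05, 3.45 and 2.90 for MYCL, −1.77, −1.87 and −1.66 for HMGA1, and −3.77, −3.24 and −2.82 for HMGA2. MAX changed by −0.88 from 24 h and −0.70 from 48 h, LIN28A by −0.86 from 12 h and −0.83 from 24 h, and LIN28B by −1.35 from 12 h and −1.40 from 24 h.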

How the results depend on the processing

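Of 148 called differences of the 8 genes, 139 stayed called at a pseudocount of 0.1, 137 without the filter, 148 with the replicate block, 140 under median-ratio scaling, 136 under quantile normalization, 134 without the trend and 50 in fits of only the libraries compared, where fewer libraries give the spread, and none reversed. Over all conditions the replicate numbers showed no common pairing of the libraries (median correlation of deviations 0.009 over 351 condition pairs). The correlation was over 0.1 in 41 pairs and under minus 0.1 in 10, with a highest value of 0.289. Pairing within single courses or times was not tested, and 1 block for all conditions cannot decide it, so the block result is only a check. Leaving out 1 library lost 158 of 596 refitted calls and reversed 0. In fits of only the libraries compared, counts fell to 3 (BLSE), 5 (SOX17+BLSE), 3 (SOX17+LSE), 0 (medium), 12 (BLSE+IWR1), 7 (with BMS493), 1 (xrOvary), 8 (SOX17+BLSE against BLSE), 0 (BMP4), 5 (BLSE+IWR1 against BLSE), 0 (against SOX17+BLSE) and 5 (day 6 against cjESC). The medium count was 1 at a pseudocount of 0.1, that of xrOvary 7 under quantile normalization, that of BMP4 7 under median-ratio scaling and 5 under quantile normalization, and that of the changed SOX17 difference 2 under median-ratio scaling. The cause of these shifts was not tested. With 1 library left out, counts ran from 10 to 21, 16 to 22, 9 to 16, 1 to 2, 17 to 19, 9 to 12, 4 to 10, 13 to 16, 2 to 3, 13 to 15, 0 to 2 and 6 to 7 in the same order, from 0 to 1 for pre-treatment and BMS493, and at 1, 0 and 0 for the changes of the SOX17, BMP4 and BMS493 differences. The uncalled difference of MYC in BLSE at 48 h turned to 0.0039 under quantile normalization and ran from −0.0881 to 0.0243 with 1 library left out, and that at 96 h turned to 0.047 under median-ratio scaling and ran from −0.1686 to 0.0246. TPM give no depth, so no limit of detection can be stated for HMGA2 in xrOvary.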
